A study of Homo sapiens with 3 samples.

Results

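The 39 HOX genes of the human genome were described in HEK293T cells from 3 RNA-seq libraries of 1 condition. The members were the protein-coding genes named HOXA, HOXB, HOXC or HOXD with a position number, and they were 39 of the 61193 annotated genes and of the 19926 protein-coding genes measured. HEK293T derives from human embryonic kidney and expresses large T antigen of SV40, and it was grown in DMEM with fetal bovine serum and harvested 24 h after seeding. The 3 libraries came from independent biological replicates of untreated cells, so no conditions were compared and no test between groups was made. RNA was converted with a QuantSeq 3′ kit, which is primed at the poly(A) tail and yields reads from the last part of each transcript, although the labels give the molecule as genomic DNA. Levels are given as TPM, the count per transcript divided by transcript length and scaled to 1000000 per library, and as counts of reads, and values for a gene are sums over its transcripts.

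HOX genes encode homeodomain transcription factors that give cells a position along the head to tail axis and along the limbs. They lie in 4 clusters, HOXA, HOXB, HOXC and HOXD, in which all genes point the same way and are numbered from 1, the anterior end, to 13, the posterior end, with gaps where a cluster has lost a gene. During development, genes at the anterior end are usually switched on earlier and nearer the head than those at the posterior end, Polycomb complexes keep unused genes silent, and long noncoding RNAs and microRNAs are transcribed between them. In the kidney, genes at position 11 are known for their role in the branching of the ureteric bud and in the cap mesenchyme that forms nephrons.

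The libraries held 7019253, 6262175 and 8521624 counts for replicates 1, 2 and 3. Where no read was counted, the limit is 3 counts, or 0.427, 0.479 and 0.352 per 1000000 counts in replicates 1, 2 and 3, and it covers counting error only. Replicate 3 stood apart in composition, with 25.8% of its counts on mitochondrial genes against 9.59% and 5.70% in replicates 1 and 2. The summed HOX level was 2284, 2439.6 and 1499.98 TPM, and 2958, 2883 and 2690.05 TPM once mitochondrial genes had been left out and the values rescaled. On the TPM scale 21 of 27 expressed HOX genes were lowest in replicate 3, and ranks and shares within the HOX genes are given beside the levels. Of the markers of the line, 8 of 10 nephron lineage genes reached 1 TPM (80%, against 38.2% of all protein-coding genes). SIX2, a factor of nephron progenitors, was at 83.2 ± 29.4 TPM (SD, n = 3) and GATA3 at 20.6 ± 6.13 TPM. EYA1 passed on only 5, 1 and 8 counts and LHX1 on 5, 4 and 6. PAX8 had no count and WT1 was at 0.928 ± 0.387 TPM. Other listed transcripts cover the 3′ ends of PAX8 and WT1, so both values are uncertain. Among epithelial markers 1 of 5 (20%) reached 1 TPM, KRT8 at 1.35 ± 0.433 TPM. Only 2% of the 3′ end of KRT18, 32.3% of that of KRT19 and 40% of that of EPCAM is free of other listed transcripts. The end of KRT8 was not assessed, and of these markers only CDH1 has an end free throughout, so the other low values are uncertain. Of the neural and mesenchymal filament genes 2 of 5 (40%) reached 1 TPM, INA at 38.8 ± 16.5 TPM and NES at 2.32 ± 0.459 TPM. NEFL and NEFM had no count, and VIM had 0, 6 and 5 counts. Other listed transcripts cover the ends of NEFM and VIM throughout, so these 2 values are uncertain. Markers of other cell types were at 0 counts for 6 of 8, and their summed level ranged from 24.6 to 25.2 TPM, nearly all of it COL1A1.

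Of the 39 HOX genes, 27 had a mean of at least 1 TPM, the level called expressed here, or 69.2%, compared with 38.2% of all protein-coding genes and 21.7% of all annotated genes. The number was 26 in replicate 1 and 27 in each of the other 2 replicates. More than 3 counts in every replicate were found for 26 HOX genes, compared with 39.5% of protein-coding genes, and the gene that separates the counts is HOXA7. The high category, at or above the third quartile of expressed genes (24.1 TPM), held 15 HOX genes or 38.5%, compared with 12.5% of protein-coding genes. The medium category held 10 and the low category, at or below 2.40 TPM, held HOXA7 and HOXC12. The median level over all 39 HOX genes was 8.85 TPM and that over all protein-coding genes 0.195 TPM. The background differs with the 3′ end, as described below. At least 1 TPM was reached by 57.6% of 5539 protein-coding genes with clear ends. Among 7840 with ends shared throughout on their strand, 26.0% did. The part of 3′ ends in the HOX contrasts was not tested. The remaining 12 HOX genes were 10 without a count in any replicate and 2, HOXA10 and HOXD11, with a few counts below 1 TPM. These shares are a description of this list, which was not tested against other genes.

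**Figure D1:**
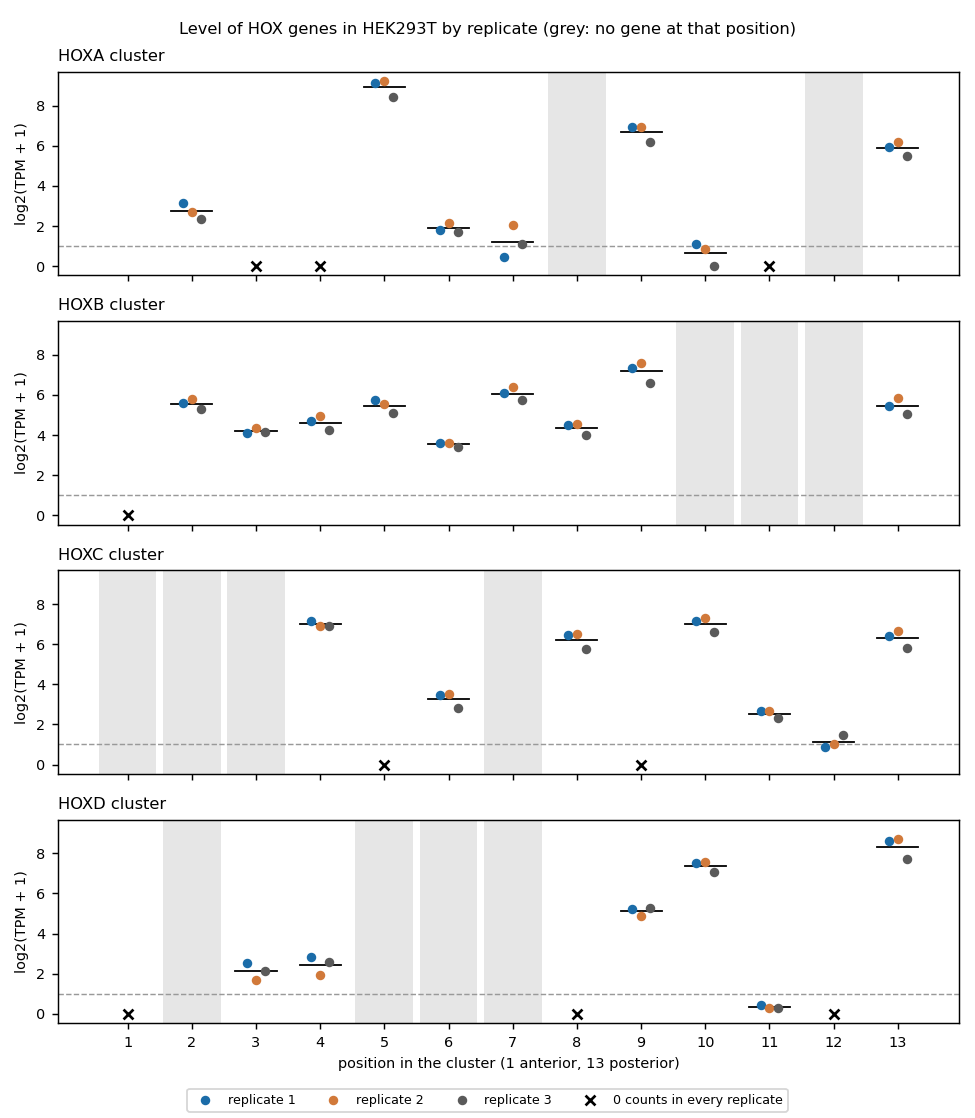
Level of 38 HOX genes as log2(TPM + 1) against its position in the HOXA, HOXB, HOXC and HOXD clusters. Points are the 3 replicates, bars the mean of their log values, crosses genes with 0 counts in every replicate, and the dashed line marks 1 TPM. All 4 genes at position 13 sit above 4 on this scale in every replicate, and HOXB1 and HOXD1 at position 1 are crosses.

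Every cluster was transcribed, and each at its posterior end. In HOXA (chromosome 7, minus strand) 6 of 11 genes were expressed. In HOXB (chr17:48528526-48728750, minus strand, hg38) the count was 9 of 10, the exception being HOXB1. In HOXC (chr12:53938831-54056030, plus strand) it was 7 of 9, and in HOXD (chr2:176092721-176190907, plus strand) 5 of 9. The median over the members was 33.9 TPM for HOXB and lower for HOXC (8.85 TPM), HOXD (3.48 TPM) and HOXA (1.56 TPM). The summed level had another order.

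HOXA supplied 33.0%, 32.8% and 31.4% of all HOX TPM in replicates 1, 2 and 3 (32.4 ± 0.905%, SD, n = 3). HOXD supplied 26.9%, 26.3% and 25.6% (26.3 ± 0.626%). HOXB and HOXC had nearly equal shares, 20.5 ± 0.830% and 20.9 ± 1.33%. The ranges of HOXA and HOXD did not overlap with each other or with the rest, whereas those of HOXB (19.6% to 21.2%) and HOXC (19.7% to 22.3%) did, so these 2 clusters could not be ordered. HOXA5 made up 501 of the 675 TPM of HOXA and HOXD13 made up 336 of the 547 TPM of HOXD. These 2 genes held 37.0% of all HOX counts, and the top 5 genes 60.0%.

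By position the levels were uneven. Positions 1 to 3 held 3.63 ± 0.500% of HOX TPM with 4 of 8 genes expressed, positions 4 to 8 held 42.9 ± 1.22% with 12 of 15, and positions 9 to 13 held 53.4 ± 1.63% with 11 of 16. The largest shares lay at position 5, with 26.2 ± 0.751%, and position 13, with 24.7 ± 2.01%. The ranges over the replicates at these positions overlapped, 25.4% to 26.8% and 22.5% to 26.5%, so their order was not resolved. Positions 10 and 9 followed, with 14.5 ± 0.673% and 13.9 ± 0.315%. Between them and position 13 lay a gap, since position 11 held 0.251 ± 0.0249% and position 12 held 0.0648 ± 0.0448%. Without division by length, position 13 held 32.6 ± 1.96% of HOX counts and position 5 held 20.9 ± 0.580%, so that the ranking of the top positions depends on the scale.

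**Figure D2:**
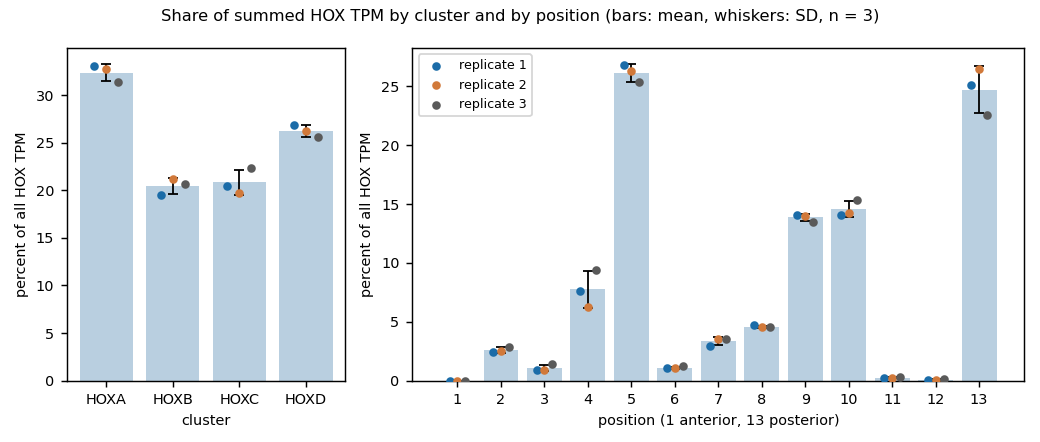
Percent of the summed HOX TPM by cluster (left) and by position (right), with bars for the mean, whiskers for the SD and points for the 3 replicates. HOXA and HOXD stand above HOXB and HOXC, and positions 5 and 13 stand above the rest, with almost nothing at positions 11 and 12.

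The group at position 13 specifies the most posterior structures. HOXD13, which patterns the digits and is mutated in synpolydactyly, was at 386, 417 and 206 TPM (336 ± 114 TPM, 4234, 3862 and 3325 counts), the second highest HOX gene in every replicate. HOXC13, known for its role in hair and nail formation, was at 83.4, 100.1 and 54.7 TPM (79.4 ± 23.0 TPM). HOXA13, a gene of distal limb and genitourinary development, was at 60.9, 72.4 and 44.6 TPM (59.3 ± 13.98 TPM). HOXB13, which is known for its role in the prostate, was at 43.3, 56.6 and 32.2 TPM (44.04 ± 12.3 TPM). All 4 were in the high category, and HOXD13 did not overlap with the others in any replicate. The position of HOXA13 depends on its transcript length of 5015 bases, since it ranked 11 among HOX genes by TPM in each replicate and 5 by counts per 1000000.

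Genes at positions 11 and 12 were low in every cluster that has them, and in HOXC and HOXD they lie between strongly transcribed genes at positions 10 and 13. HOXC11 was at 5.27, 5.36 and 3.95 TPM (4.86 ± 0.787 TPM, 78, 67 and 86 counts), and was the only gene at position 11 above 1 TPM. HOXC12 was at 0.810, 1.04 and 1.74 TPM (1.20 ± 0.487 TPM), from 12, 13 and 38 counts, and its mean without replicate 3 was 0.924 TPM, below the expressed level. HOXD11 had 2, 1 and 2 counts. HOXA11 and HOXD12 had none, and their limits were 0.196 to 0.341 TPM and 0.341 to 0.594 TPM. HOXA11 and HOXD11, which with HOXC11 are the genes known for kidney development, were thus at or under the limit of counting in these cells. The end of HOXD11 is covered throughout by other listed transcripts, so its low count is uncertain. For HOXA11 and HOXD12 the listed transcript differs in length from the annotation used here.

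At positions 9 and 10, 5 of 7 genes were expressed, and all 5 were in the high category. HOXD10, a gene of lumbar motor neurons and the limb, was at 180.1, 191 and 133 TPM (168 ± 31.1 TPM). HOXB9, a thoracic patterning gene, was at 163, 195 and 94.7 TPM (151 ± 51.0 TPM). HOXC10, which acts in lumbar motor neurons, was at 141, 155 and 97.3 TPM (131 ± 30.1 TPM). HOXB9 ranked between these other genes in replicate 1, above them in replicate 2 and below them in replicate 3, whereas HOXD10 was above HOXC10 each time. HOXA9, a regulator of blood progenitors, was at 122, 119 and 70.8 TPM (104 ± 28.8 TPM) and kept rank 7 in all 3 replicates. HOXD9, which acts in the proximal limb, was at 36.7, 27.9 and 37.0 TPM (33.9 ± 5.20 TPM) and was 1 of 6 expressed HOX genes that were not lowest in replicate 3. HOXC9 had no count, and HOXA10, a gene of the uterus and of blood progenitors, had 5, 3 and 0 counts, with a mean that reached 1.00 TPM only without replicate 3.

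In the central part of the clusters, HOXA5 stood far above its neighbours. HOXA5 (ENSG00000106004, chr7:27141052-27143681), which is required in lung and axial development, was at 560.0, 596 and 347 TPM (501 ± 134 TPM, 4244, 3813 and 3837 counts). It was the highest HOX gene in every replicate, above 99.2% of protein-coding genes. HOXC4, a gene of axial patterning that is also active in lymphocytes, was at 142, 121 and 118 TPM (127 ± 13.2 TPM). HOXC8, which acts in thoracic and brachial patterning, was at 85.5, 88.6 and 52.6 TPM (75.6 ± 19.95 TPM). HOXB7, an axial patterning gene often studied in tumours, was at 67.6, 82.5 and 52.4 TPM (67.5 ± 15.1 TPM). HOXB5, known from neural crest cells of the gut, was at 53.0, 45.5 and 32.8 TPM (43.8 ± 10.2 TPM). All 5 were in the high category, and HOXA5 was separated from the other 4 in every replicate. HOXB4, known for the expansion of blood stem cells, was just below that category at 24.9, 29.4 and 17.8 TPM (24.0 ± 5.85 TPM). HOXB8, a gene of myeloid progenitors, was at 21.4, 22.1 and 15.1 TPM (19.6 ± 3.86 TPM).

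The rest of the central genes were lower by far. HOXB6 was at 11.1, 11.3 and 9.70 TPM (10.7 ± 0.867 TPM) from only 23, 20 and 30 counts. HOXC6, a thoracic gene, was at 10.1, 10.4 and 6.04 TPM (8.85 ± 2.44 TPM), and HOXD4, a hindbrain and neck gene, at 6.01, 2.76 and 5.02 TPM (4.59 ± 1.67 TPM). Position 6, with all 3 of its genes expressed, thus held only 1.09 ± 0.0974% of HOX TPM. Other listed transcripts cover the end of HOXB6 throughout and those of HOXC6 and HOXA6 in part. The levels of these 3 genes may therefore be too low. HOXA6 was at 2.45, 3.43 and 2.27 TPM (2.72 ± 0.622 TPM). HOXA7 had 1, 7 and 6 counts, or 0.377, 3.12 and 1.17 TPM (1.56 ± 1.41 TPM), so its call as expressed rests on single reads and is lost without replicate 2, at a mean below 1 TPM. HOXA4, HOXC5 and HOXD8 had no count in any replicate.

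Among the anterior genes, only HOXB2 at position 2 was in the high category. HOXB1 and HOXD1 at position 1 had 0 counts in every replicate, with limits between 0.221 and 0.415 TPM. HOXB2, a gene of the hindbrain and of facial motor neurons, was at 46.9, 55.4 and 38.5 TPM (46.9 ± 8.49 TPM) and lies next to HOXB1. HOXA2, which sets the identity of the second pharyngeal arch, was at 7.71, 5.41 and 4.18 TPM (5.77 ± 1.79 TPM). Among the genes at position 3, HOXB3 was at 16.1, 19.4 and 17.05 TPM (17.5 ± 1.68 TPM), and it was lowest in replicate 1. HOXD3 was at 4.80, 2.23 and 3.41 TPM (3.48 ± 1.29 TPM), and HOXA3 had no count.

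The order of the genes was nearly the same in each replicate. Across the 39 genes, log2(TPM + 1) of replicate pairs had Pearson coefficients between 0.992 and 0.994 and Spearman coefficients between 0.988 and 0.994. These coefficients are across genes of the same 3 libraries and describe a list that spans absent and abundant genes. Of the 26 pairs of neighbours in the order of the expressed genes, 14 kept their order in every replicate. HOXD13 and HOXD10 (206 TPM or more against 191 TPM or less), and HOXB3 and HOXB6 (16.1 TPM or more against 11.3 TPM or less), were the 2 pairs of neighbours with ranges that did not overlap. All other neighbours, HOXA5 and HOXD13 included, overlapped across replicates on the TPM scale.

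Some HOX genes nevertheless varied more than counting noise gives. Over counts scaled to 1000000 outside the mitochondrial genes, an index was computed that is 1 where replicates differ by counting noise alone. Its median over the 20 HOX genes with a mean of at least 50 counts was 3.69, compared with 6.69 over 5040 protein-coding genes. HOXC10 had the lowest value, 0.186, with 199, 198 and 203 counts per 1000000. HOXD13 had the highest, 62.0, with 667, 654 and 526. HOXC4 followed with 55.1, from 174, 134 and 213. HOXD9 was next with 45.8, from 49.2, 33.9 and 73.1. Replicate 3 was thus the lowest for HOXD13 and the highest for HOXC4 and HOXD9, with a ratio of replicate 3 to replicate 2 of 0.804 for HOXD13, 1.59 for HOXC4 and 2.16 for HOXD9. Replicate 3 also held the most mitochondrial counts, and the part of RNA quality in these differences was not tested.

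**Figure D3:**
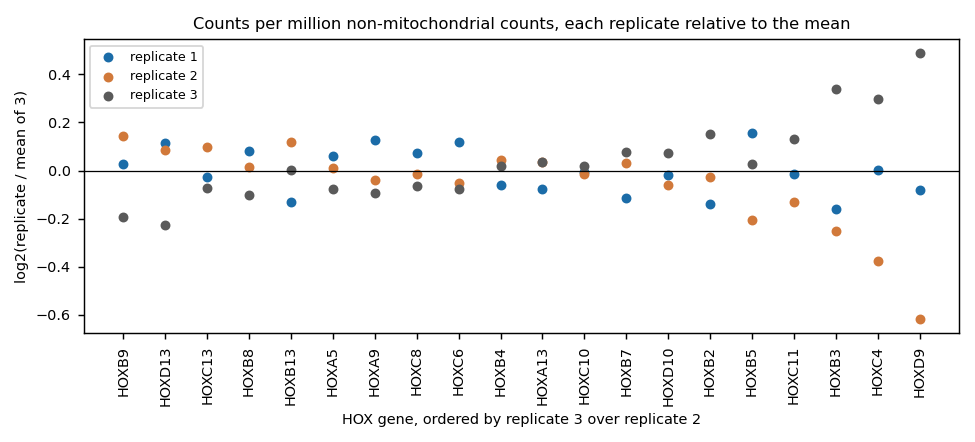
Counts per 1000000 non-mitochondrial counts of each replicate relative to the mean of the 3, as log2, for the 20 HOX genes with a mean of at least 50 counts. HOXB9 and HOXD13 at the left are lowest in replicate 3, HOXB3, HOXC4 and HOXD9 at the right are highest in it, and the points for HOXC10 lie nearly on 0.

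Since reads come from transcript ends, the values can depend on whether other listed transcripts overlap the 3′ end of a HOX gene. The final 300 exonic bases of each canonical transcript were covered by no other listed transcript on either strand for 23 HOX genes. Other transcripts of the same gene count as cover here. For 16 of these 23 genes the annotation used here has the same transcript length as the deposited tables. Of these 16 genes, 14 were expressed, compared with 57.6% of the 5539 protein-coding genes with clear ends. Among the 7 other genes with clear ends, whose listed transcript differs in length from the annotation used here, 4 were expressed, and HOXA11 and HOXD12 were among those at 0. The end of HOXB1 is clear and unchanged, so no overlap accompanies its 0 counts. HOXA10 is the other gene with a clear, unchanged end that was not expressed.

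Other listed transcripts on the same strand, of the same gene or of another, covered the whole end of 7 HOX genes. Of these, 2 were expressed, HOXB3 and HOXB6, compared with 26.0% of 7840 protein-coding genes of that kind. The other 5 were HOXA3, HOXA4, HOXC5 and HOXD8 at 0 and HOXD11 near 0. A low value of these 5 genes cannot be told apart from reads left unassigned between overlapping transcripts. The ends of HOXC6, HOXA9, HOXB4, HOXA6 and HOXC10 were shared in part. They were clear for 30%, 54%, 85.3%, 88.7% and 95.3% of their bases in that order, so these levels may be too low. The end of HOXC9, also at 0, was clear for 13% of its bases. HOXA7 and HOXD1 had ends covered only by antisense transcripts, a kind of which 46.2% of 266 protein-coding genes were expressed. The counting was not stated to use strand, so for these 2 genes reads of either strand cannot be told apart. The end of HOXC5 was identical in sequence to transcripts of other genes in 100% of its words of 31 bases. This share was 8.15% for HOXA6, 5.19% for HOXB4 and 0 for the rest of the 39 genes. The lncRNA gene ENSG00000273046 overlaps HOXC5 on the same strand and ends at the same base, 54035361, so these words can reflect that overlap. For HOXA3, HOXA4, HOXB3, HOXB6, HOXD8 and HOXD11, with 0 such words, the cover on the same strand came from transcripts of the same gene.

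Within genes, 97.8% of the HOX counts lay on the canonical transcript, and 44 of 107 listed HOX transcripts had any count. The expressed genes with most counts elsewhere were HOXB3, HOXB6, HOXD3 and HOXA7. For HOXB3, 92.9% of the counts lay on a coding transcript of 4208 bases that is not canonical. For HOXB6 and HOXD3, every count lay on transcripts with no defined coding sequence, of 468 and 371 bases for HOXB6 and of 1055 bases for HOXD3, so no reads were assigned to transcripts that encode these 2 proteins. For HOXA7, 12 of 14 counts (85.7%) lay on a shorter coding transcript of 585 bases, and for HOXC6 39.04% lay on a second coding transcript. All 8 counts of HOXA10 and 4 of the 5 counts of HOXD11 lay on transcripts with no defined coding sequence.

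The long noncoding RNA genes between the HOX genes were also transcribed. Within 20 kb of the clusters, 16 of 31 lncRNA genes were expressed, compared with 15.2% of all 17557 lncRNA genes. Of the 21 on the strand opposite to the HOX genes, 12 were expressed. HOTAIRM1, at the anterior end of the HOXA cluster, was at 136, 115 and 78.6 TPM (109.9 ± 29.0 TPM), although its end is shared with other listed transcripts. LINC03057, which lies in the long interval between HOXB9 and HOXB13, was at 61.4, 84.6 and 59.9 TPM (68.6 ± 13.8 TPM). HOTAIR, an RNA of the HOXC cluster studied as a partner of Polycomb complexes, was at 10.7, 12.8 and 11.5 TPM (11.6 ± 1.06 TPM), while HOTTIP, which lies beside HOXA13, had 5, 13 and 15 counts and 0.803 ± 0.436 TPM. HOTTIP thus stayed below the expressed level although HOXA13 was high. HOXB-AS4 was at 35.4, 60.4 and 26.8 TPM and HOXA10-AS at 38.0, 42.0 and 23.5 TPM. Of the end of HOXA10-AS, 50% is free of other transcripts on its own strand, but that part is covered by transcripts of the opposite strand. Its reads thus cannot be told apart from those of overlapping transcripts, and the gene overlaps HOXA9 and HOXA10. HOXD-AS2 was at 29.8, 39.3 and 26.2 TPM and HOXC13-AS at 21.1, 23.5 and 24.1 TPM, both with clear ends. HOXA-AS2 varied widely, with 79, 37 and 140 counts, and HOXB-AS1 had 5, 9 and 40 counts. Both were highest in replicate 3, and the ends of both are shared with other listed transcripts.

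**Figure D4:**
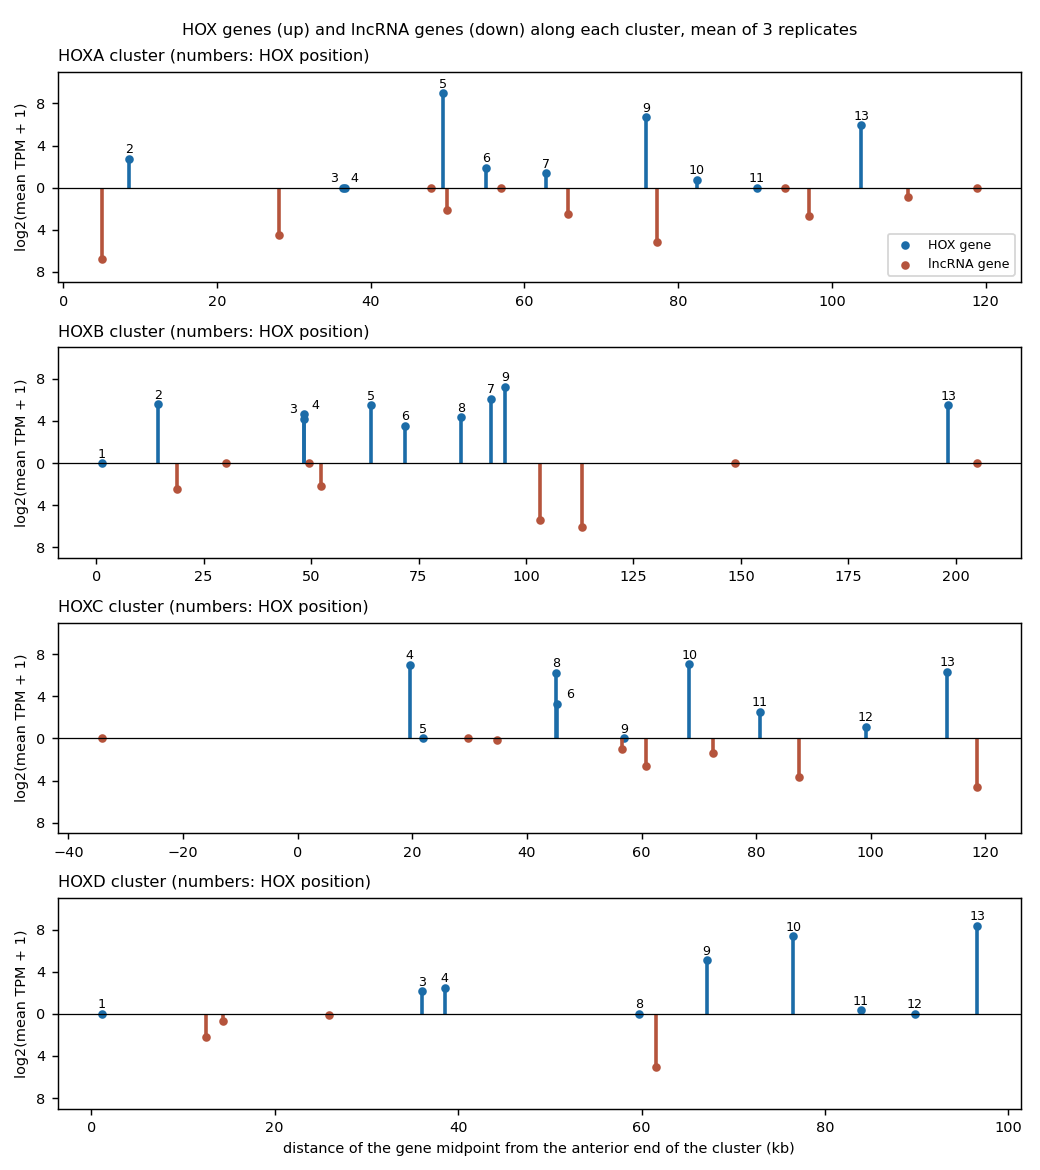
Mean level as log2(mean TPM + 1) of HOX genes (upward, labelled by position) and of lncRNA genes (downward) against distance in kb from the anterior end of each cluster. HOX genes at positions 9, 10 and 13 stand high where the cluster has them, except HOXC9 at 0 and HOXA10 near 0, and HOTAIRM1 is the tall lncRNA at the anterior end of HOXA.

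The clusters also hold microRNA genes, which a kit primed at poly(A) tails does not capture as mature RNAs. Of 8 such genes, MIR10B, inside HOXD3 and just upstream of HOXD4, had 17, 8 and 35 counts, and 7 had none. Reads at MIR10B can come from a longer transcript, which was not tested. The mature sequences are shown as products of the miR-10 and miR-196 families of the clusters, with bases 2 to 8, the seed, in capitals, as given by RefSeq for GRCh38.
miR-196a-5p (HOXB and HOXC): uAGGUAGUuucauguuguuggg
miR-196b-5p (HOXA): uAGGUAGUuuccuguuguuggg
miR-10a-5p (HOXB): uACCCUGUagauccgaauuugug
miR-10b-3p (HOXD): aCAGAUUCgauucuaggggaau
miR-196a-5p and miR-196b-5p have the same seed, AGGUAGU, although they come from 3 clusters.

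Genes that flank the clusters did not share 1 level. SKAP2, 97.8 kb beyond the anterior end of HOXA, was at 149 ± 30.8 TPM, and SKAP1, 98.3 kb beyond that of HOXB, at 41.7 ± 8.97 TPM, although only 1% of the end of SKAP1 is clear. These are paralogous adaptor genes. On the posterior side, the homeobox genes EVX1 and EVX2 were at 0.190 ± 0.166 TPM and 0.295 ± 0.0675 TPM, both with clear 3′ ends. EVX2 lies only 8.76 kb from HOXD13, the second highest HOX gene, and the levels on that side dropped between neighbouring genes.

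Proteins that bind DNA together with HOX proteins are TALE homeodomain factors of the PBX, MEIS and PKNOX families. Of 9 TALE genes, 5 were expressed (55.6%, against 38.2% of protein-coding genes), and PBX3 was the highest at 67.0, 92.4 and 83.5 TPM (81.0 ± 12.9 TPM). Among the others, MEIS2 was at 4.01 ± 2.03 TPM, PKNOX1 at 1.62 ± 0.600 TPM and MEIS3 at 1.47 ± 1.27 TPM. The ends of 6 of the 9 genes are shared throughout with other listed transcripts, those of PBX3, MEIS2, PKNOX1 and MEIS3 included, so that these levels are uncertain.

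Of 17 genes known to regulate HOX clusters, 8 were expressed (47.1%), which is near the 38.2% of all protein-coding genes. BMI1, a subunit of Polycomb repressive complex 1, was at 181, 177 and 109 TPM (156 ± 40.2 TPM). CBX2, which reads the histone mark of Polycomb in that complex, was at 145, 159 and 87.6 TPM (131 ± 37.8 TPM). RNF2, its ubiquitin ligase, was at 57.0 ± 11.96 TPM and SUZ12, a subunit of Polycomb repressive complex 2, at 55.1 ± 12.9 TPM. All 4 have clear ends. CDX2, a factor that activates central and posterior HOX genes, was at 86.6, 92.9 and 47.2 TPM (75.6 ± 24.8 TPM), while CDX1 and CDX4, also with clear ends, had no count. GDF11, a ligand that acts on posterior HOX genes in the trunk, was at 36.4 ± 11.1 TPM. KMT2A, the methyltransferase that maintains HOX transcription, was at 28.5 ± 6.16 TPM, and CTCF, which binds boundaries within the clusters, at 1.24 ± 0.382 TPM, but the ends of both are shared almost throughout. EZH2, EED, RING1, RARA and MEN1 were at or near 0, and the ends of these 5 genes are shared throughout, so their absence cannot be told apart from unassigned reads. Of 10 homeobox genes related to HOX genes but outside the clusters, 2 were expressed (20%, against 38.2%). GBX2 (8.603 ± 0.935 TPM) and PDX1 (5.67 ± 2.25 TPM) were above 1 TPM, and GBX1, GSX1, MEOX1 and MEOX2 had no count despite clear ends.

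**Figure D5:**
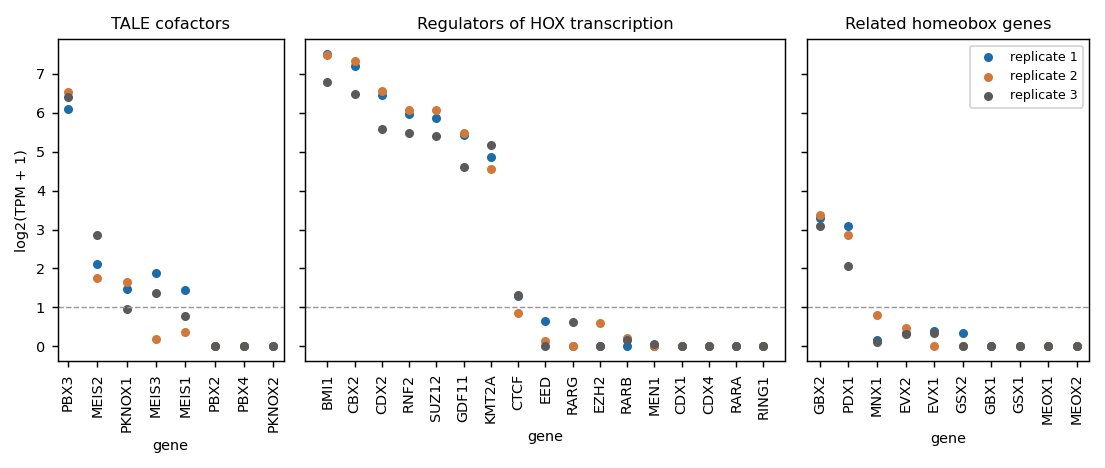
Level as log2(TPM + 1) in the 3 replicates of TALE cofactors (8 of the 9 are drawn), regulators of HOX transcription and related homeobox genes, each ordered by mean TPM, with the dashed line at 1 TPM. PBX3 stands alone among the TALE genes, 7 regulators lie above 4 in every replicate, and GBX2 and PDX1 are the only related homeobox genes above the line in every replicate.

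The series belongs to a study of i-motifs, 4-stranded structures of C-rich DNA, which was concerned with promoters, and the DNA around the HOX start sites was therefore searched. A putative i-motif sequence was defined as 4 runs of at least 3 C joined by loops of 0 to 7 bases, and on the opposite strand the same letters read as runs of G, a putative G-quadruplex. The search covered 1 kb on each side of the canonical start site on both strands. At least 1 match lay near 38 of 39 HOX genes, or 97.4%, compared with 71.3% of 19913 protein-coding genes, and the gene without a match was HOXB3. The C-rich strand was the coding strand near 29 HOX genes (74.4%, against 49.5% of protein-coding genes), and the G-rich strand was the coding strand near 33 (84.6% against 55.8%). A match lay near 26 of 27 expressed HOX genes and near 12 of 12 that were not expressed, so nearly every gene had one and the groups could not be told apart by this rule. With 5 runs in place of 4, matches lay near 21 of 27 expressed (77.8%) and 7 of 12 other HOX genes (58.3%), and with the C-rich strand as the coding strand near 51.9% and 25% of them, compared with 48.7% and 29.0% of protein-coding genes. This difference between the groups was not tested. The median GC content of the windows was 59.4% for HOX genes and 56.0% for protein-coding genes. These matches are letters in the hg38 sequence, and whether a structure forms there was not measured in these libraries.

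Of 123 matches, 113 were at most 30 bases long. Some are shown for the HOX genes with high levels, chosen after the matches were seen because they lie near the start site (HOXD13 and HOXC13) or belong to the highest gene (HOXA5), with the runs of C in capitals.
HOXD13: CCCCCCgaccggCCCaggCCCCCtCCC
HOXC13: CCCCtCCCCCCatCCCtCCCC
HOXA5: CCCggcgccgCCCgCCCaaCCCC
The HOXD13 match lies on the coding strand at chr2:176092650-176092676, from −71 to −45 relative to the start site. The HOXC13 match, on the strand opposite to the gene at chr12:53938810-53938830, ends at the last base before the start site. The HOXA5 match lies downstream of the start site, at chr7:27143085-27143107, from 574 to 596 bases into the gene on the coding strand. HOXD13 and HOXC13 also have matches with the C-rich strand on the other strand.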

How the data were processed

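RNA-seq libraries of HEK293T cells from 3 replicates were analysed. Per the submitters' processing notes, Trimmomatic 0.38.0, HISAT2 2.2.1, featureCounts 2.2.1 and the hg38 build were used, while the settings for overlapping genes, strand and the annotation release are not given in the sources used here. The authors deposited, for each of 247541 transcripts, the count of reads without normalization, the transcript length in bases and the TPM. The TPM deposited by the authors was recomputed from the count and the length, with a largest deviation of 1.75e-10. Because reads come from 3′ ends, division by length lowers long transcripts.

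Transcript identifiers without version were matched to GENCODE 44, and 223558 matched; the 23983 others, with at most 0.166% of the counts, stayed in the library totals. Counts and TPM were summed per gene. Replicates differed beyond sampling noise (chi-square per degree of freedom 13.3, 87.5 and 125 for pairs 1 and 2, 1 and 3, and 2 and 3) and were counted as 3 samples. SDs are between replicates. Every HOX gene at or above 1 TPM or above 3 counts in every replicate was given by replicate. Sequences came from hg38 and RefSeq. HOX protein sequences were not analysed here. Some genes and sequences are not reported here. The members and the gene lists were chosen with earlier results of these data known. Alternatives were other thresholds, counts per 1000000, mitochondrial genes left out, single or coding transcripts, other search rules and each replicate left out. Scripts were tested on simulated data. Python 3.11.15, numpy 2.4.6, pandas 2.3.3 and matplotlib 3.10.9 were used.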

Additional observations from a re-analysis of the deposited data

How the results depend on the processing

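The number of HOX genes with a mean of at least 1 TPM, 27, was 29 for a mean above 0 and 19 for a mean of at least 10 TPM, and 25 to 27 under the other definitions, with 25 from protein-coding transcripts only, since HOXB6 and HOXD3 then had no count. Leaving out a replicate gave 26 to 27, with 26 without replicate 2, where HOXA7 was lost (0.775 TPM). Without replicate 3 the count stayed at 27, but HOXC12 was lost (0.924 TPM) and HOXA10 entered (1.0002 TPM). The number above 3 counts in every replicate, 26, ranged from 24 to 28. On counts per 1000000, the share of HOXA fell to 30.9%, that of HOXB rose to 21.5% and that of HOXD to 27.4%, and the order of HOXA and HOXD above the other clusters was the same. Promoter matches were found near 39 HOX genes with loops of 0 to 12 bases or runs of at least 2 bases, and near 28 with 5 runs. Clear ends were found for 17 HOX genes over the last 500 exonic bases, against 23 over 300. Rescaling without mitochondrial genes moved 26 of 27 levels by more than 1 SD, all upward. No paired analysis was possible because there was 1 group. A gene with fewer than 4 counts cannot be told from a silent gene at this depth, and a gene with a shared end may be undercounted.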
